A study of Gallus gallus with 24 samples.

Results

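Cytokines that act through JAK kinases and STAT factors switch on their own brakes, and this report describes 9 genes of that loop in chicken PBMCs (peripheral blood mononuclear cells). Members were taken by name from a list of 10 genes, namely JAK2, JAK3, STAT3, STAT5B, SOCS1, SOCS2, SOCS3, CISH, PIM1 and PIM3, and 9 of these 10 had a row among the 23910 genes of the count table. STAT5B had no row under that symbol, and RefSeq's chicken gene table lists it only as a synonym of STAT5A, which is given separately and not counted as a member. PBMCs of 6 Cobb500 broilers of 4 to 6 weeks were kept for 24 h at the body temperature of birds in medium with chicken serum under 4 conditions. These were co-culture with the live probiotic Bacillus strains BS (a B. subtilis) or BV (a B. velezensis), both at 3 bacteria per PBMC, the T cell mitogen concanavalin A at 10 µg/ml (conA), or medium alone (control). Experimental duplicates were pooled per chicken before RNA sequencing, so that each condition had 6 libraries, 1 from each chicken, and all 3 treatments were compared with the same 6 control libraries.

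When a cytokine binds, its receptor brings JAK kinases together, these phosphorylate STAT factors, and the STATs enter the nucleus and start transcription. SOCS1, SOCS2, SOCS3 and CISH are classical STAT targets in mammals, and their proteins bind the receptor or the kinase and turn the signal down. PIM1 and PIM3 are kinases also induced by STATs, which favour survival and growth of lymphocytes, so that the loop has an arm that brakes the signal and an arm that carries it.

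The libraries held between 12170873 and 31242160 counted reads (median 23952895), and all 9 members passed the minimum of 2 reads over all libraries, along with 20266 genes in all. Their lowest count in any library was 45 reads, for SOCS2. Values are normalized counts, that is, reads divided by a size factor per library, and they compare libraries for 1 gene but not genes with each other, as they are not scaled by gene length. T cell markers (10 of 12 found) summed to between 55446 and 75377 normalized counts in every library, B cell markers (9 of 10) to between 1689 and 4651 and monocyte or macrophage markers (9 of 11) to between 139 and 1042. CD8A, a marker of cytotoxic T cells, has 3 entries in the annotation, of which 1 had between 1038 and 3082 normalized counts and the other two had at most 13.7. Thrombocyte markers (6 of 8), which mark the nucleated platelets of birds, summed to between 2056 and 68113 in chickens 1 and 2 and to between 599 and 3178 in chickens 3 to 6, and within each condition both sums of chickens 1 and 2 were above all 4 sums of chickens 3 to 6.

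No member passed the test in any comparison when the chicken was left out of the fit. After BS, 0 of 9 members had an adjusted p (padj, Benjamini-Hochberg over all genes) under 0.05 in edgeR, as had 0.0% of the 20266 genes, and 1 of 9 had an unadjusted p under 0.05, against 3.14% of all genes. After BV, 0 of 9 members passed, against 0.00493% of all genes, and none had an unadjusted p under 0.05, against 2.95%. After conA, 0 of 9 passed, against 2.34% of all genes, and 2 of 9 had an unadjusted p under 0.05, against 12.8%. Between BS and BV, 0 of 9 passed and none had an unadjusted p under 0.05, against 0.0% and 1.12% of all genes. DESeq2 without the block also called 0 of 9 members in each of these 4 comparisons. The median absolute log2 fold change (FC) of the 9 members was 0.05 after BS, 0.12 after BV and 0.26 after conA, beside 0.16, 0.16 and 0.27 over all genes tested. Over the genes kept by edgeR's filter by expression, which drops genes of low counts, this median was 0.10, 0.10 and 0.18. Beside these values, the members' medians were lower after BS and higher after BV and conA. The largest of the 9 members was 0.86, for CISH after conA, below the limit of 1.5 that the study set for its calls.

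**Figure D1:**
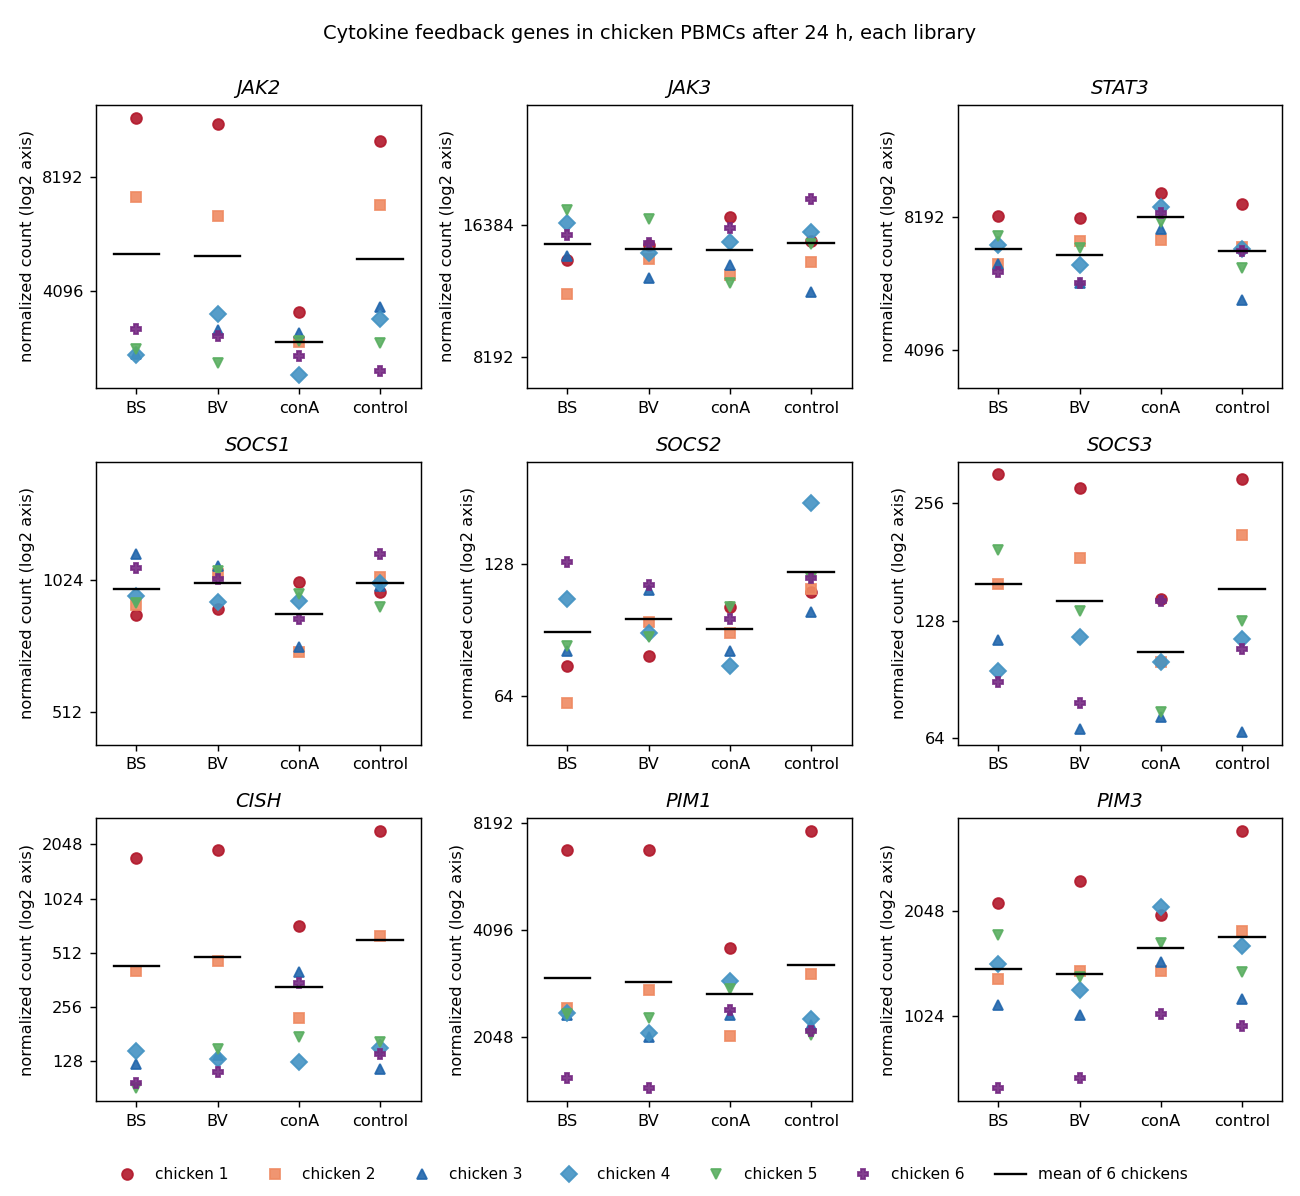
Normalized counts (log2 axes) of the 9 members in each of 24 libraries, by condition, with 1 symbol per chicken and a line at the mean of 6. Chickens 1 and 2 lie above the others for JAK2 and CISH in the BS, BV and control libraries, and STAT3 lies higher after conA than in the other conditions within each chicken.

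The same 6 chickens supplied every condition, so the fit was repeated with the chicken as a block, which compares conditions within a chicken. With the block, 1 of 9 members passed after BS, against 1.04% of all genes, 0 of 9 after BV, against 0.913%, and 0 of 9 after conA, against 6.12%. The member that passed was CISH, which was lower after BS.

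**Figure D2:**
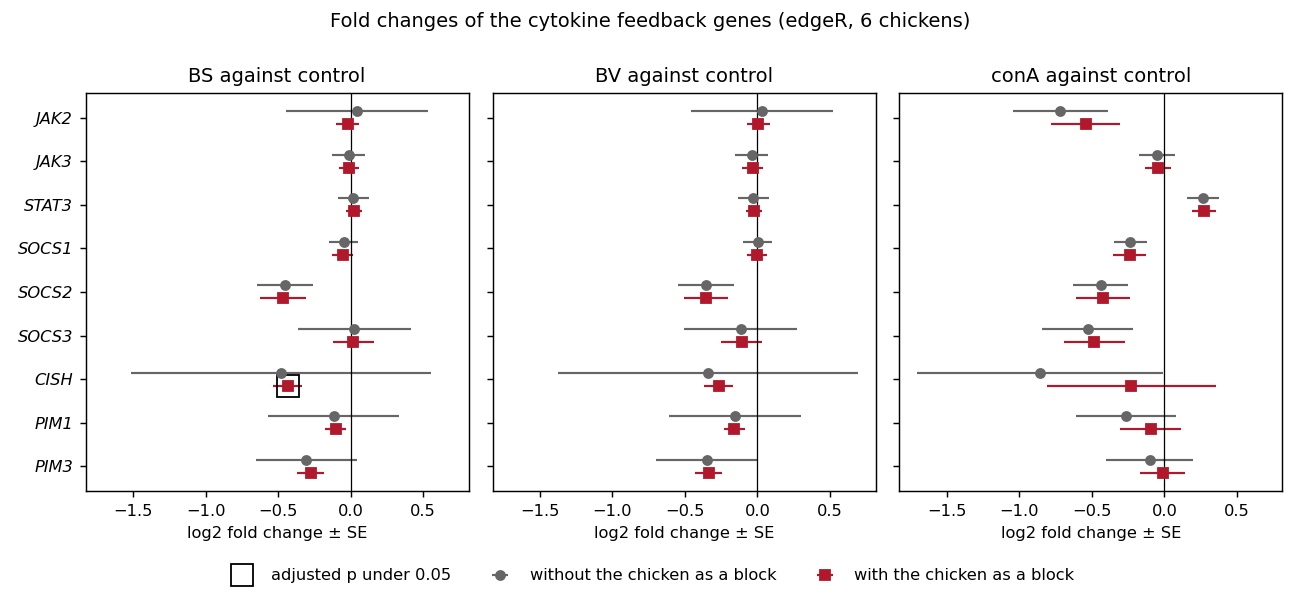
log2 FC ± SE of each member (rows) after BS, BV and conA from edgeR, without the chicken as a block (grey circles) and with it (red squares), n = 6 chickens per condition. The open square marks CISH after BS, with a log2 FC of -0.43 and a padj of 0.0300, and the bars of JAK2, CISH, PIM1 and PIM3 after BS and BV shorten when the chicken is in the fit.

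JAK2 (ENSGALG00000015027), the kinase of growth factor, interferon gamma and interleukin 12 receptors, averaged 5117 ± 3686 normalized counts after BS, 5060 ± 3354 after BV, 3006 ± 391 after conA and 4964 ± 2997 in the control (SD, n = 6 each). BS libraries ran from 2781 (median 3069) to 11753, BV libraries from 2651 (median 3405) to 11314, conA libraries from 2455 (median 3014) to 3614 and control libraries from 2518 (median 3583) to 10188. The ranges of all conditions overlapped, and the upper ends of the BS, BV and control ranges were set by chickens 1 and 2. Its log2 FC after conA was -0.72 (SE 0.33, padj = 0.394 from edgeR), with lower counts in 4 of 6 chickens. With the block it was -0.54 (SE 0.24, padj = 0.310 from edgeR), and DESeq2 with the block gave a padj of 0.0435. After BS and BV the log2 FC of JAK2 was 0.05 and 0.03 (SE 0.49 each, padj = 1 from edgeR).

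JAK3 (ENSGALG00000033234), the partner of the common gamma chain of the interleukin 2 family in lymphocytes, varied little. Its mean was 14807 ± 2276 after BS, 14470 ± 1490 after BV, 14362 ± 2018 after conA and 14898 ± 2405 in the control (SD, n = 6 each). Its log2 FC lay between -0.05 and -0.01 in the 3 comparisons with the control, and every exact permutation p between neighbouring levels was 0.656 or more.

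STAT3 (ENSGALG00000003267), the factor behind interleukin 6, 10 and 21 signals, was the member that was higher after conA in every chicken. It had from 7289 (median 8192) to 9297 normalized counts in conA libraries, against from 5319 (median 6906) to 8771 in control libraries. The groups overlapped, but conA was above the control within each of 6 chickens, which held for 5.75% of all genes. The mean difference was 1358 ± 798 normalized counts (SD of 6 within-chicken differences, exact paired permutation p = 0.03125, two-sided), and this p is the smallest that 6 pairs allow. STAT3 after conA was also above BS, by 1268 ± 589, and above BV, by 1496 ± 943, in 6 of 6 chickens (exact paired permutation p = 0.03125 each). Being higher in conA in 6 of 6 chickens held for 6.08% of all genes against BS and 5.3% against BV. Over all genes the difference from the control did not pass, with a log2 FC of 0.26 (SE 0.11, unadjusted p = 0.0277, padj = 0.317 from edgeR). With the block it was 0.28 (SE 0.08, padj = 0.0732 from edgeR, and 0.0471 from DESeq2 with the block). STAT3 averaged 6955 ± 793 after BS, 6727 ± 920 after BV, 8223 ± 713 after conA and 6865 ± 1129 in the control (SD, n = 6 each), and BS, BV and control levels did not differ beyond their spread. STAT5A, the gene that carries the name STAT5B as a synonym, averaged 7455 ± 1293 after BS, 7026 ± 1090 after BV, 7202 ± 890 after conA and 7588 ± 1136 in the control, with a padj of at least 0.83 in edgeR in each comparison.

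SOCS1 (ENSGALG00000007158), a brake on JAK kinases in interferon and interleukin 2 signalling, averaged 978 ± 125 normalized counts after BS, 1010 ± 93 after BV, 858 ± 126 after conA and 1011 ± 94 in the control (SD, n = 6 each). Its lowest mean was thus after conA, where the log2 FC was -0.23 (SE 0.12, padj = 0.411 from edgeR), with lower counts in 4 of 6 chickens. No exact paired permutation test of SOCS1 between conditions went below p = 0.156.

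SOCS2 (ENSGALG00000050619), a brake best known on growth hormone signalling, had its highest mean in the control. Its counts ran from 61.6 (median 82.0) to 129 in BS libraries, from 78.8 (median 91.5) to 114 in BV libraries, from 74.7 (median 92.2) to 102 in conA libraries and from 99.3 (median 116) to 176 in control libraries. The ranges overlapped, and the highest control library was that of chicken 4. Means were 89.3 ± 24.4 after BS, 95.9 ± 14.2 after BV, 90.7 ± 11.2 after conA and 123 ± 27 in the control (SD, n = 6 each). After conA it was below the control in 6 of 6 chickens, as were 4.93% of all genes, by 31.9 ± 34.4 normalized counts (exact paired permutation p = 0.03125). After BS and after BV it was below the control in 5 of 6 chickens (exact paired permutation p = 0.0625 and 0.0938). The log2 FC was -0.45 after BS (SE 0.19, unadjusted p = 0.0302, padj = 1), -0.35 after BV (SE 0.19, padj = 1) and -0.44 after conA (SE 0.19, unadjusted p = 0.0336, padj = 0.345), all from edgeR and against the same controls. Without chicken 4 it was -0.37, -0.19 and -0.25, all still below 0 and none past the test.

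SOCS3 (ENSGALG00000027786), the brake on interleukin 6 type receptors and a textbook STAT3 target, averaged 159 ± 81 after BS, 144 ± 79 after BV, 106 ± 32 after conA and 154 ± 84 in the control (SD, n = 6 each). Unlike STAT3, it was not higher after conA in every chicken but in 2 of 6, with a log2 FC of -0.53 (SE 0.31, padj = 0.513 from edgeR). Its level was highest in chicken 1 in all 4 conditions.

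CISH (ENSGALG00000002260), the brake induced by STAT5 in T cells, differed more between chickens than any other member. In chicken 1 it had 1728 normalized counts after BS, 1916 after BV, 717 after conA and 2433 in the control, and in chicken 2 it had 408, 461, 222 and 633 in the same order. Chickens 3 to 6 had between 90.5 and 146 after BS, between 111 and 150 after BV, between 127 and 398 after conA and between 116 and 164 in the control. Within a chicken, the ratio of BS to control was 0.71, 0.64, 1.06, 0.97, 0.55 and 0.69 for chickens 1 to 6, so that CISH was lower after BS in 5 of 6. The BS library of chicken 5, which gave the lowest ratio, was the shallowest of all 24, with 12170873 counted reads and 49 for CISH. Without the block the log2 FC of CISH was -0.48 with an SE of 1.04 (padj = 1 from edgeR). With the block it was -0.43 with an SE of 0.10 and CISH passed as lower after BS (padj = 0.0300 from edgeR, 0.0115 from DESeq2 with the block), as did 0.395% of all genes. The exact paired permutation p of the difference in normalized counts was 0.0938. The blocked call ended without chicken 1, 2, 5 or 6 (padj = 0.347, 0.256, 0.0597 and 0.0898 from edgeR), with log2 FC from -0.50 to -0.37 over the 6 fits that leave out 1 chicken, and in chickens 3 to 6 alone the blocked log2 FC was -0.29 (padj = 0.874). The sum of thrombocyte markers was lower after BS in chickens 1 to 4, of which chicken 3 had higher CISH, and 0 of 6 of these genes passed. In chickens 5 and 6, where CISH was lower, the thrombocyte sum was higher after BS (2847 against 1744 and 866 against 808). With the block, 3 of 7 erythrocyte markers, 2 of 9 B cell markers and 1 of 2 heterophil markers found rose after BS, while 1.04% of all genes passed in either direction. The heterophil marker was MMP9, a matrix metalloproteinase, with 72.1 ± 16.9 normalized counts after BS against 23.7 ± 14.9 in the control (SD, n = 6 each, log2 FC 1.63, SE 0.30, padj = 0.00348 from edgeR). Their part in the CISH result was not tested, and in bulk RNA fewer cells of a type and less RNA per cell cannot be told apart.

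After BV, CISH had a blocked log2 FC of -0.27 (SE 0.10, padj = 0.269 from edgeR) and lower counts in 5 of 6 chickens. Between BS and BV its log2 FC was -0.14 (SE 1.04) without the block and -0.17 (SE 0.10) with it, with a padj of 1 from edgeR in both. The 2 strains share the controls, and the direct test shows no difference between them beyond the spread for CISH or for any other member, with absolute log2 FC of at most 0.14 without the block.

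PIM1 (ENSGALG00000038902), a survival kinase induced by STAT3 and STAT5, averaged 3002 ± 1927 after BS, 2925 ± 1985 after BV, 2702 ± 554 after conA and 3258 ± 2250 in the control (SD, n = 6 each). The wide SD was set by chicken 1, with 6876, 6885, 3638 and 7788 in that order of conditions. The other 5 chickens had between 1564 and 2457 after BS, between 1464 and 2764 after BV, between 2058 and 2933 after conA and between 2063 and 3074 in the control. No comparison with the control passed (padj of at least 0.401 from edgeR, with and without the block).

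PIM3 (ENSGALG00000023576), its close relative, was below the control after BV in 6 of 6 chickens, as were 2.62% of all genes. It had from 677 (median 1271) to 2506 normalized counts in BV libraries, against from 957 (median 1495) to 3482 in control libraries, and these ranges overlap. The mean difference was -373 ± 332 normalized counts (SD of 6 within-chicken differences, exact paired permutation p = 0.03125). In the test over all genes its log2 FC was -0.35 (SE 0.35, padj = 1 from edgeR) without the block and -0.34 (SE 0.09, padj = 0.108 from edgeR) with it, while DESeq2 with the block gave a padj of 0.035. Leaving out chicken 5 in the blocked edgeR fit gave a padj of 0.0135, and leaving out any other chicken gave 0.111 or more. After BS the blocked log2 FC was -0.28 (SE 0.09, padj = 0.219 from edgeR), with lower counts in 5 of 6 chickens, and without chicken 5 it passed as lower (log2 FC -0.39, padj = 0.0123 from edgeR). With 1 chicken left out, with or without the block, its log2 FC after BS ran from -0.43 to -0.15, nearest to 0 without chicken 1.

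Among 54 exact paired tests, 9 members times 6 pairs of conditions, 5 reached the smallest p of 0.03125, and these were the 3 of STAT3 with conA, SOCS2 after conA and PIM3 after BV. Such a difference of 1 sign in 6 of 6 chickens was found in 7.52% of all pairings of a gene with 2 conditions. The members' count was thus near this background. It was taken over all 20266 genes, of which 13024 averaged 10 normalized counts or more. A share over these better counted genes alone was not computed, here or for the single genes above. The shares given with each gene above count 1 direction only, while these tests are two-sided. In either direction, of 20266 genes it held for 2164 in conA against control, 2326 against BS and 2055 against BV. For BV against control it held for 1168. In unpaired exact permutation tests 4 of these 5 remained under 0.05, while PIM3 after BV had p = 0.470. The labels give each conA library a biological replicate number, which is read here as the chicken. Of the 6 conA libraries, 2 did not correlate best with the control of the same number. Every paired or blocked conA value thus rests on these labels. In chickens 3 to 6 the conA libraries are also numbered apart from the others. There conA and library number cannot be told apart in any comparison with conA. Ordered by their means, the 4 conditions of each member gave 27 pairs of neighbours, of which 26 did not differ beyond the spread of the within-chicken differences (exact permutation p of 0.0938 or more). The exception was STAT3 between conA and BS.

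Over the 18 BS, BV and control libraries, the chicken took 97.7% of the sum of squares of log2(normalized count + 1) for CISH, 97.1% for JAK2, 96.4% for PIM1, 89.6% for SOCS3, 87.7% for PIM3 and 77.8% for STAT3. The median over the 13024 genes that averaged 10 normalized counts or more was 65.8%. JAK3, at 66.6%, was close to that median, and SOCS1 (56.2%) and SOCS2 (32.9%) were below it. The condition took 34.8% for SOCS2 and between 0.0272% and 5.87% for the other 8 members, against a median of 5.07%. Over all 24 libraries, conA included, the chicken took less, with a median of 46% over these genes, and between 70.5% and 83.3% for CISH, PIM1, PIM3 and JAK2. STAT3 then had 46.6% for the chicken and 33.5% for the condition, and for SOCS1 and SOCS2 the condition took more (29.8% and 35%) than the chicken (8.89% and 18.5%).

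**Figure D3:**
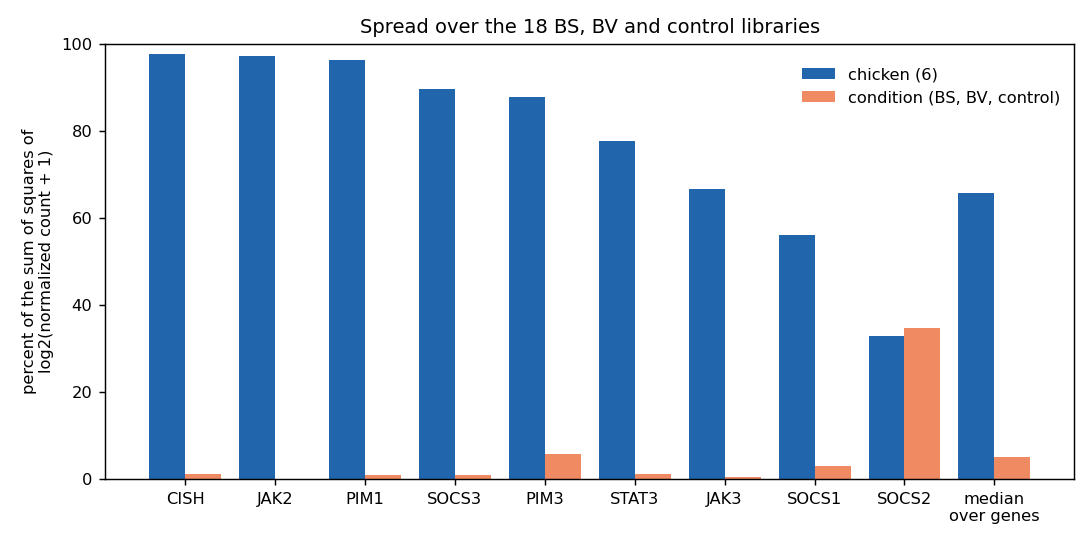
Percent of the sum of squares of log2(normalized count + 1) over 18 libraries that the chicken (blue) and the condition (orange) take, for each member and as the median over 13024 genes. CISH, JAK2 and PIM1 stand above 96% for the chicken, and SOCS2 is the only member with a larger share for the condition in these libraries, which leave out conA.

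Chickens 1 and 2 had higher means of JAK2, CISH, PIM1, PIM3 and SOCS3 than chickens 3 to 6 in the BS, BV and control libraries, and this gap was smaller after conA. For JAK2 the ratio of the mean of chickens 1 and 2 to that of chickens 3 to 6 was 3.25 after BS, 2.83 after BV, 1.16 after conA and 2.7 in the control. For CISH it was 9.33, 8.94, 1.79 and 10.7 in the same order, for SOCS3 1.88, 2.34, 1.26 and 2.43 and for PIM3 1.41, 1.83, 1.08 and 2.07. The sets overlapped after BS for PIM3, where chicken 2 had 1306 normalized counts and the highest of chickens 3 to 6 had 1753, and for SOCS3, where these were 159 and 194. The libraries of chickens 1 and 2 carry consecutive numbers over all 4 conditions, while the conA libraries of chickens 3 to 6 are numbered apart from the others of these chickens. The conA effect was therefore fitted in each set of chickens with the chicken as a block, and the difference of both effects was tested. This test was added after these levels had been seen in the same libraries, so that its calls describe the gap again and give no independent support for it.

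The conA effect differed between the sets for 3 of 9 members, against 1.16% of all genes (236 of 20266, but 9 without chicken 1, 63 without chicken 2 and 122 without chicken 6). For JAK2 the log2 FC was -1.34 (SE 0.16) in chickens 1 and 2 and -0.14 (SE 0.11) in chickens 3 to 6, with a difference of -1.19 (SE 0.19, padj = 0.00727 from edgeR). For PIM1 it was -0.83 (SE 0.15) in chickens 1 and 2 and 0.27 (SE 0.11) in chickens 3 to 6, with a difference of -1.10 (SE 0.19, padj = 0.0109 from edgeR). For PIM3 it was -0.58 (SE 0.15) and 0.28 (SE 0.11) in the same order, with a difference of -0.86 (SE 0.18, padj = 0.0375 from edgeR). Of the 9 members CISH had the largest difference, with a log2 FC of -1.64 (SE 0.35) in chickens 1 and 2 and 0.76 (SE 0.30) in chickens 3 to 6, and just missed the threshold in edgeR (difference -2.40, SE 0.46, padj = 0.0530), while DESeq2 gave 1.2e-05. STAT3, JAK3, SOCS1, SOCS2 and SOCS3 did not pass (padj of at least 0.48 from edgeR).

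These calls rest on the 2 chickens of the first set. Without either of them the set holds 1 chicken, which is assumed to vary like the others. Without chicken 1 the difference in log2 FC was -1.05 for JAK2, -0.84 for PIM1, -0.65 for PIM3 and -2.26 for CISH, and the adjusted p was 0.287 for JAK2, 0.449 for PIM1, 1 for PIM3 and 0.656 for CISH, and without chicken 2 it was 0.0567, 0.0401, 0.0798 and 0.286 in the same order, all from edgeR. PIM3 also passed in none of the fits without 1 of chickens 3 to 6 (padj from 0.0625 to 0.0786). The direction of the difference was the same for these 4 genes in every fit. Within chickens 3 to 6 alone, no member passed after conA (padj of at least 0.0666 from edgeR with the block).

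**Figure D4:**
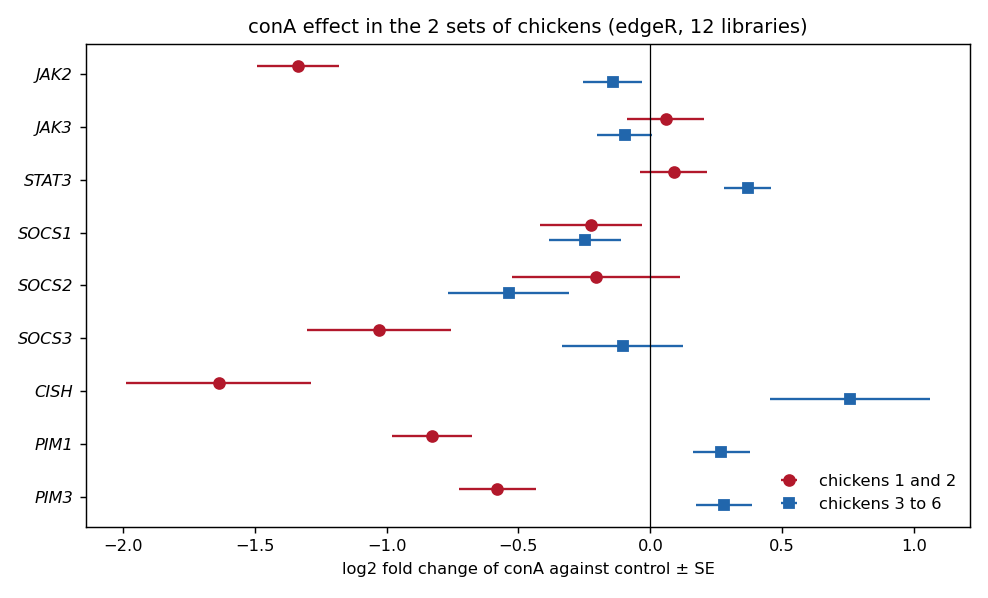
log2 FC of conA against the control ± SE for each member in chickens 1 and 2 (red circles) and in chickens 3 to 6 (blue squares), from 1 edgeR fit of 12 libraries with the chicken as a block. CISH, PIM1 and PIM3 lie below 0 in chickens 1 and 2 and above 0 in chickens 3 to 6, and JAK2 lies at -1.34 and -0.14.

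Markers of thrombocytes, B cells and monocytes or macrophages are given here beside these levels. In chickens 1 and 2 thrombocyte markers summed to between 24031 and 59336 normalized counts after BS and between 25421 and 54796 after BV. After conA these sums were between 2056 and 11366, and in the control between 25895 and 68113. In chickens 3 to 6 the sums were between 866 and 3065, between 914 and 2709, between 599 and 991 and between 808 and 3178 in the same order, and no marker of the 6 found was at 0 in any library. After conA, F13A1, which encodes a subunit of coagulation factor XIII, fell (log2 FC -1.85, padj = 0.0239 from edgeR). With the block 4 of 6 markers fell, against 6.12% of all genes, among them GP9, a platelet glycoprotein (log2 FC -3.22, SE 0.26, padj = 1.8e-06 from edgeR). The thrombocyte sum fell after conA in chickens 3, 4 and 5 (3059 to 991, 3178 to 599 and 1744 to 921). In chicken 6 it did not (808 to 952). PIM1 and PIM3 were higher after conA in all of chickens 3 to 6. Between the sets of chickens the conA effect differed for 1 of 6 thrombocyte markers (GP1BB) and 1 of 9 B cell markers (BTK). Among monocyte or macrophage markers it was 0 of 9, against 1.16% of all genes. The median of this difference in log2 FC was -1.48 over the thrombocyte markers and 0.38 over the B cell markers. Over monocyte or macrophage markers it was -0.50, beside -0.86 over the 9 members and 0 over all genes tested. B cell marker sums were also higher in chickens 1 and 2, at between 3462 and 4532 in the control against between 1689 and 1867 in chickens 3 to 6. Most of this sum was BTK, a kinase of B cell receptor signalling, with between 2456 and 3547 normalized counts in the controls of chickens 1 and 2 and between 442 and 547 in those of chickens 3 to 6. CD79B, a chain of the B cell receptor, was the other way round, with between 587 and 699 in chickens 1 and 2 and between 828 and 1009 in chickens 3 to 6, as was PAX5, with between 54.1 and 59.1 and between 102 and 165. Monocyte or macrophage marker sums in chickens 1 and 2 were between 1027 and 1042 in the control, against between 139 and 472 in chickens 3 to 6. The sets were also apart after BV, at 651 to 761 against 219 to 562. They overlapped after BS, at 513 to 632 and 147 to 736, and after conA, at 555 to 970 and 178 to 582. The part of these cells in the levels of JAK2, CISH, PIM1 and PIM3 was not tested. Chicken and library numbers cannot be told apart between the sets, nor can conA and library numbers within chickens 3 to 6.

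**Figure D5:**
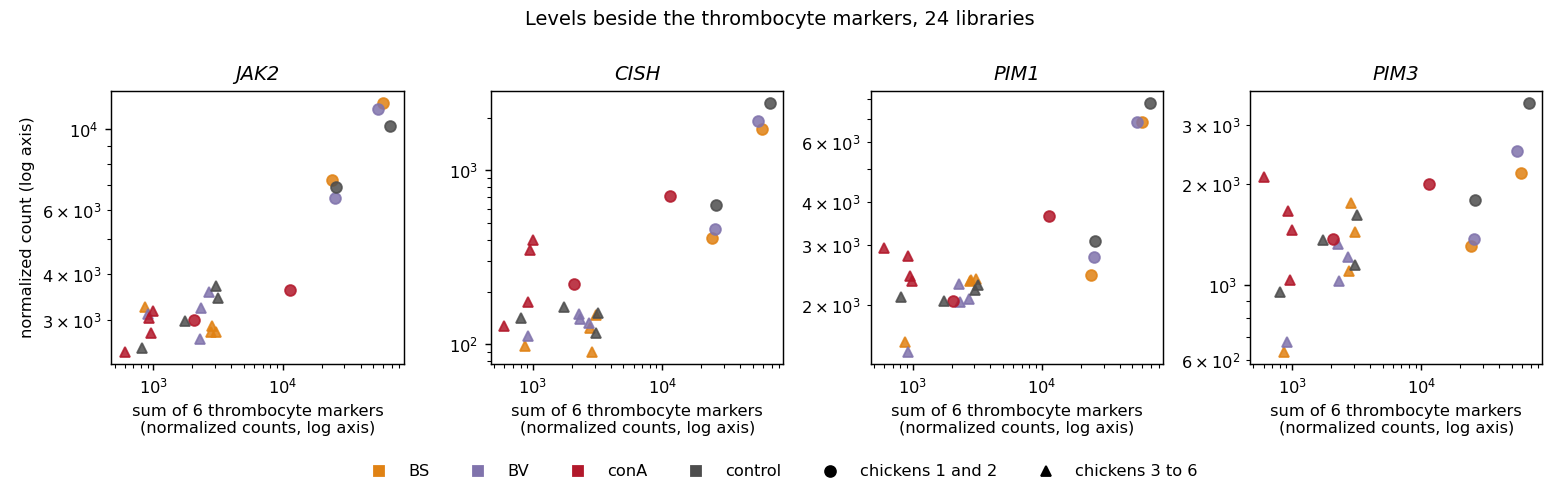
Normalized counts of JAK2, CISH, PIM1 and PIM3 against the sum of 6 thrombocyte markers (both log axes) in 24 libraries, coloured by condition, with circles for chickens 1 and 2 and triangles for chickens 3 to 6. The 6 BS, BV and control libraries of chickens 1 and 2 form the right end of each panel, with marker sums of 24031 or more, and their conA libraries lie further left, at 2056 and 11366.

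The genes whose levels followed those of a member most closely were sought over the 24 libraries after centring each gene on its chicken, among 13024 genes. These are descriptions, as libraries of a chicken share their cells and libraries of a condition their treatment. JAK2 was most like SEL1L3, RFX7 and DENND4A (Pearson r of 0.98, 0.97 and 0.97). CISH was most like ZFPM1, a cofactor of GATA factors, MCL1, a survival gene of the BCL2 family, and IFRD1 (0.91, 0.89 and 0.88). PIM1 was most like CFAP45, MCL1 and KLF10 (0.91, 0.91 and 0.90), so that MCL1 was near both. PIM3 was most like SRF, a factor of growth signals, PSMD9 and SLC4A2 (0.92, 0.92 and 0.90). STAT3 was most like QARS and SARS, which charge tRNAs with glutamine and serine, and NAB2 (0.94, 0.93 and 0.93). JAK3 was most like DHODH, MYO1G and ANKRD13B (0.96, 0.94 and 0.94). SOCS1 was nearest to LIPG, HYDIN and ADAM33 (0.82, 0.81 and 0.80), SOCS2 to MCRIP2, PRRG4 and TLE3 (0.81, 0.78 and 0.75) and SOCS3 to PPM1M, SCAMP2 and MID1IP1 (0.85, 0.85 and 0.83). Among the members, the closest pair was PIM1 and PIM3, with r of 0.76 over 24 libraries.

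Upstream of the loop, 1 ligand gene and 4 receptor genes passed after conA. Of 13 ligand genes found, IL2, the main growth factor of T cells, rose, with 37.5 ± 28.7 normalized counts after conA against 0.32 ± 0.79 in the control (SD, n = 6 each, padj = 0.0058 from edgeR). Of 22 receptor genes, 4 rose and 0 fell without the block, namely IL21R, IL13RA1, IL2RB and IL2RA. IL21R had 1072 ± 452 normalized counts after conA against 26.1 ± 15.6 in the control (log2 FC 5.33, SE 0.37, padj = 3.7e-06 from edgeR). With the block, CSF2RA and IL10RB also rose.

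Of 5 other JAK and STAT genes, STAT4, the factor of interleukin 12, rose after conA, with 4465 ± 770 normalized counts against 2969 ± 582 in the control (SD, n = 6 each, log2 FC 0.59, SE 0.14, padj = 0.0231 from edgeR). Of 16 other brakes, such as the remaining SOCS genes, the PIAS genes and phosphatases, 0 passed without the block. With it, PTPN6, a phosphatase that dampens receptor signals, rose (log2 FC 0.45, SE 0.08, padj = 0.00194) and SH2B3 and CBL fell (log2 FC -0.62 and -0.37, padj = 0.00227 and 0.0231, all from edgeR). Of 11 further genes known as STAT targets, IRF4, BCL2 and MYC rose and IRF1 fell, also without the block. IRF4, a factor of activated lymphocytes, had 5472 ± 1606 normalized counts after conA against 1558 ± 375 in the control (log2 FC 1.81, SE 0.21, padj = 1.4e-04 from edgeR). IRF1, the interferon response factor, had 4918 ± 559 against 6978 ± 1432 (log2 FC -0.50, SE 0.12, padj = 0.0357 from edgeR).

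After BS and BV, no gene of these pathway lists passed without the block. With the block, CSF3, a growth factor of granulocytes, rose after BS, with 15.5 ± 10.3 normalized counts against 0.33 ± 0.52 in the control (SD, n = 6 each, padj = 0.00292 from edgeR), and after BV, with 11 ± 17.2 (padj = 0.0229). IL2RA, the alpha chain of the interleukin 2 receptor, rose after both strains, with 890 ± 137 after BS and 911 ± 231 after BV against 635 ± 145 in the control (log2 FC 0.49 and 0.51, SE 0.08 each, padj = 0.00117 and 7.3e-04 from edgeR). CSF2RA, a receptor chain for GM-CSF, rose after BS, with 75.3 ± 38.2 against 34 ± 26.7 in the control (log2 FC 1.16, SE 0.25, padj = 0.0126 from edgeR), and was higher in 6 of 6 chickens. STAT4 also rose after both, with log2 FC of 0.36 and 0.31 (SE 0.07 each, padj = 0.00418 and 0.0212 from edgeR). Of the brakes, PIAS1 and CBLB rose after BV (log2 FC 0.25 and 0.24, padj = 0.0235 and 0.0299 from edgeR) and none passed after BS. MCL1 fell after both strains, with a log2 FC of -0.24 after BS and -0.26 after BV (SE 0.06 each, padj = 0.0303 and 0.0212 from edgeR), and was lower in 5 of 6 and 6 of 6 chickens.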

How the data were processed

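Total RNA of PBMCs was sequenced by the authors from stranded libraries with 100 bases per end, and reads were aligned to GRCg6a with STAR 2.7.3 as named in the submitters' processing notes. How reads were counted, and on which annotation release, is not given in the sources used here. One deposited table holds the authors' raw counts per gene, and the other holds the authors' normalized signal, counts divided by DESeq2 size factors, for the 20266 genes with 2 reads or more in total. Per-sample columns were all used. The gene table at hand is of another genome build, so that it served for names only and no coordinates or sequences are given.

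The members and all gene lists were chosen with earlier results of these data known. Counts went into edgeR 4.0.16 (R 4.3.3, glmQLFit and glmQLFTest, TMM, Benjamini-Hochberg adjustment over all genes tested), with BS, BV and control in 1 fit of 18 libraries and conA and control in another of 12. The main fits had no term for the chicken, as the methods of the study name none. Fold changes are treatment over control, and BS over BV. The chicken as a block, DESeq2 1.42.0, other normalizations, filters and samples were alternatives. The edgeR fits of BS and of conA against control, with and without the block, were tested on simulated data. So was the edgeR test of the conA difference between the sets of chickens. Contrasts of BV, DESeq2 fits and fits that leave out 1 chicken were not tested in this way. The simulated counts were drawn from the model that edgeR assumes, and cannot show how a fit behaves where that model fails. In the simulated fits of BS and of conA, the changes put in were larger than the log2 FC of any member there. Recovery of changes as small as those of the members was thus not tested. Single levels were compared with two-sided exact permutation tests of within-chicken differences (scipy 1.17.1, Python 3.11.15). Named were all members, per list and comparison the 2 largest rises and falls among genes that passed or any of a count of 5 or fewer, and the 3 genes most like each member. A planned search of promoters was not done, as no promoter sequence was at hand.

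Samples labelled with the same biological replicate number were taken to come from the same chicken. Their deviations from the group means over 13024 genes correlated by at least 0.386 between BS and control, 0.506 between BV and control and 0.453 between BS and BV. Between conA and control the correlation was from -0.034, in chicken 3, to 0.768, and 4 of 6 libraries correlated best with their own chicken, so that the pairing of conA rests on the labels alone.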

Additional observations from a re-analysis of the deposited data

Results flagged for a closer look

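Single libraries stood far from the other 5 of their condition in 8 of 36 groups of 6 tested with Dixon's ratio, the gap to the nearest library over the whole range. In independent groups chance flags about 1 in 20. The 36 groups share the same 6 chickens and are not independent, so that 8 of 36 cannot be measured against that rate. In 7 of these 8 the library was the highest and came from chicken 1. The ratio for CISH was 0.806 after BS (1728 against 408 normalized counts in the next library), 0.806 after BV (1916 against 461) and 0.777 in the control (2433 against 633). For PIM1 it was 0.832 after BS (6876 against 2457), 0.760 after BV (6885 against 2764) and 0.823 in the control (7788 against 3074). PIM3 gave 0.669 in the control (3482 against 1793). The remaining one was SOCS2 in the control of chicken 4, with a ratio of 0.744 (176 against 119).

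The effect of conA differed between chickens 1 and 2 and chickens 3 to 6 in a direct test, chosen after these levels had been seen, for JAK2, PIM1 and PIM3, with differences in log2 FC of -1.19, -1.10 and -0.86. Without chicken 1 all 3 calls ended, with differences of -1.05, -0.84 and -0.65, and without chicken 2 those of JAK2 and PIM3 ended. A possible role of the thrombocyte markers, whose sum was highest in chicken 1 in all 4 conditions, was not tested.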

How the results depend on the processing

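Of 765 fold changes of members under alternatives, 675 kept their direction and their side of the threshold, 9 passed only under the alternative and 81 changed sign, and none of these 81 passed the test. The cause of these changes was not tested. Of 108 alternative exact tests, 98 kept direction and side, 5 changed sign and 5 changed call in the unpaired test. In that test PIM3 after BV no longer passed (p = 0.470), while SOCS1 after conA against control and BV (exact p = 0.0390 and 0.0411) and SOCS2 after BS and BV (exact p = 0.0411 and 0.0238) did. Of 90 alternatives for the difference in the conA effect, 71 kept direction and side. DESeq2 with the replicate block, leaving out 1 chicken with the block and the restriction of BS and BV to chickens 3 to 6 (with the block also of conA) were chosen after seeing the data, as was the whole comparison of the conA effect between sets of chickens.

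After BS, 0 genes passed in the main fit, 15 with DESeq2, 2 with all 24 libraries in 1 fit, 210 with the replicate block, 386 with DESeq2 and the block, 68 with the block in chickens 3 to 6, and from 0 to 212 with 1 chicken left out. After BV, 1 gene passed in the main fit, 10 with DESeq2, 185 with the replicate block, 334 with DESeq2 and the block, 47 with the block in chickens 3 to 6, and from 0 to 173 with 1 chicken left out. It was 0 with DESeq2 size factors, without a filter, with 24 libraries and in chickens 3 to 6 without the block. After conA, 474 passed in the main fit, 780 with DESeq2, 1240 with the replicate block, 1585 with DESeq2 and the block, 28 in chickens 1 and 2 only, and from 265 to 1153 with 1 chicken left out. Without the block it was 266, 273, 306 and 265 without chicken 2, 3, 5 and 6, and with the block it was 729 without chicken 2. With the block, 99, 101 and 134 genes passed after BS without chicken 1, 2 and 6, and 62, 121 and 65 after BV without chicken 1, 4 and 6, while without the block 0 passed after either strain with any chicken left out. Between BS and BV, 9 genes passed with DESeq2 and the block. Of the members, 1 passed after BS with the block and with DESeq2 and the block, 1 after BV and 2 after conA with DESeq2 and the block, and from 0 to 1 after BS and after BV with 1 chicken left out. The conA effect differed between the sets of chickens for 441 genes with DESeq2 and for 9 to 246 with 1 chicken left out, the lowest without chicken 1.

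Signs changed as follows. In chickens 3 to 6, without and with the block, log2 FC after BS was 0.017 and 0.013 for SOCS1, -0.12 and -0.11 for JAK2 and 0.058 and 0.073 for JAK3. After BV it was -0.0064 and -0.0055 for JAK2, and between BS and BV it was -0.11 and -0.10 for JAK2, and 0.0082 for SOCS2 without the block. After conA it was 0.86 and 0.76 for CISH, 0.28 and 0.27 for PIM1 and 0.30 and 0.28 for PIM3, while JAK3 had 0.087 in chickens 1 and 2 only. With the replicate block in edgeR and in DESeq2, JAK2 had -0.020 and -0.021 after BS and -0.027 and -0.023 between BS and BV, and SOCS1 had -0.0023 and -0.0039 after BV, where it also had -0.0022 with DESeq2 size factors, -0.0020 with DESeq2 and -0.0016 with edgeR's filter by expression. On the log2 scale the mean paired difference was 0.35 and 0.14 for CISH in conA against BS and BV, 0.060 for PIM1 in conA against BV, and -0.022 and -0.029 for JAK2 in BS against control and BV. For SOCS1 the difference in the conA effect was -0.0053 with DESeq2 size factors, -0.0076 with DESeq2 and from -0.31 to 0.35 with 1 chicken left out.

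With 1 chicken left out, with or without the block, log2 FC after BS ran from -0.079 to 0.14 for SOCS3, from -0.028 to 0.062 for STAT3, from -0.096 to 0.10 for JAK2 and from -0.069 to 0.050 for JAK3. After BV it ran from -0.059 to 0.046 for SOCS1, from -0.064 to 0.024 for STAT3, from -0.045 to 0.064 for JAK2 and from -0.094 to 0.031 for JAK3. After conA it ran from -1.13 to 0.21 for CISH, from -0.37 to 0.10 for PIM1, from -0.21 to 0.15 for PIM3 and from -0.10 to 0.0014 for JAK3. Between BS and BV it ran from -0.030 to 0.14 for PIM3, from -0.066 to 0.056 for JAK2 and from -0.018 to 0.079 for JAK3. The promoter search that had been planned was not run. SOCS2, CISH and SOCS3 had the lowest counts of the members, with at least 45, 49 and 55 reads in every library, so that counting error weighs most on these genes.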

Other observations

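SOCS1L, a further SOCS1-like entry of the chicken annotation, averaged 261 ± 59 normalized counts after BS, 254 ± 36 after BV, 285 ± 68 after conA and 237 ± 45 in the control (SD, n = 6 each). It was higher after conA in 5 of 6 chickens, with a log2 FC of 0.27 (SE 0.18, padj = 0.579 from edgeR), while SOCS1 was lower in 4 of 6. Reads shared between near-identical copies cannot be told from these files.

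Of 12 T cell marker entries, 1 rose and 0 fell past the test after conA without the block, against 2.34% of all genes. The median log2 FC of these entries was -0.01. The one that rose was ZAP70, the kinase of the T cell receptor, with 5232 ± 787 normalized counts after conA against 3550 ± 447 in the control (SD, n = 6 each, log2 FC 0.56, SE 0.11, padj = 0.00869 from edgeR). Of 10 proliferation genes found, MCM2, a subunit of the replicative helicase, rose (log2 FC 0.49, SE 0.12, padj = 0.0330 from edgeR), and the median log2 FC of the list was 0.38, beside -0.03 over all genes tested. With the chicken as a block, PAX5 and EBF1, factors of B cell identity, rose after BS (log2 FC 0.79 and 1.27) and after BV (log2 FC 0.86 and 1.31), in 6 of 6 chickens each (padj from 5.8e-04 to 0.0087 from edgeR).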
